A study of Mus musculus with 6 samples.

Results

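The response to TNFa was measured in mouse dendritic cells (DC) that carried the adenovirus AdIkBa-SR, by setting the array of AdIkBa-SR cells given TNFa (AdIkBa-SR+TNFa) against the array of AdIkBa-SR cells without it (AdIkBa-SR). These are 2 of the 6 arrays of the study, 1 array for each group, and all 22626 probe sets that are not controls were compared. The other arrays are AdOVA+TNFa and AdOVA, from cells with the control adenovirus, and TNFa and untreated, from cells without virus. All cells were DC grown from bone marrow, which the labels describe as taken from the hind legs of a female CAR-transgenic mouse aged 13 weeks, and the labels do not spell CAR out. The bone marrow cells were expanded for 7 days and differentiated for another 7 days in GM-CSF at 250 U/ml. They were exposed to virus at 1500 particles per cell for 2 h and cultured for 18 h more, and TNFa at 50 ng/ml was then added for 4 h. The labels speak of a single mouse and name no separate culture for any group, and no mock transduction is recorded for the cells without virus. With 1 array a group, no difference between the AdIkBa-SR+TNFa and AdIkBa-SR arrays has a replicate check.

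TNFa is an inflammatory cytokine whose receptors activate the IkB kinase complex. That kinase marks the inhibitor IkBa for destruction, which frees NF-kB dimers to enter the nucleus, and a super-repressor (SR) form of IkBa resists this step and keeps NF-kB in the cytoplasm. In DC the pathway is known for driving maturation, with more costimulatory molecules, cytokines and chemokines, and for inducing its own inhibitors as feedback.

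The file header of the AdIkBa-SR array records other wash and stain settings than those of all other arrays. It gives 0 cycles in both washes and 420 s in the first stain. The AdIkBa-SR+TNFa array and the other arrays have 10 and 4 cycles and 600 s. Whether the AdIkBa-SR array was truly handled differently cannot be settled from the headers. In every comparison of these 2 arrays any difference in handling cannot be told apart from TNFa. The 18 spiked-in hybridization controls, which do not come from the cells, were all lower on the AdIkBa-SR+TNFa array than on the AdIkBa-SR array, with a median log2 difference of -0.27 (range -0.52 to -0.11). In the AdOVA pair 16 of 18 were lower with TNFa (median -0.15), and without virus 13 of 18 (median -0.09). The ratio of the 5' to the 3' control probe set of Actb was 0.916 on the AdIkBa-SR+TNFa array and 0.738 on the AdIkBa-SR array, and from 0.545 to 0.726 on the others. For Gapdh the same ratio was close on the AdIkBa-SR+TNFa and AdIkBa-SR arrays, at 1.22 and 1.25, and from 1.14 to 1.35 on the others. The 18S ribosomal RNA control at its 5' end read 537 and 340 on the AdIkBa-SR+TNFa and AdIkBa-SR arrays, against 2601 and 234 on the AdOVA+TNFa and AdOVA arrays. The AdIkBa-SR+TNFa, AdIkBa-SR and AdOVA+TNFa arrays share a hybridize date in their file headers and the remaining arrays share another. The AdOVA pair thus spans both dates. Median signals were 75.3 on the AdIkBa-SR+TNFa array and 74.4 on the AdIkBa-SR array, and 58.4% and 57.9% of probe sets were above the floor of 53.5, under which signals were set to the floor.

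**Figure D1:**
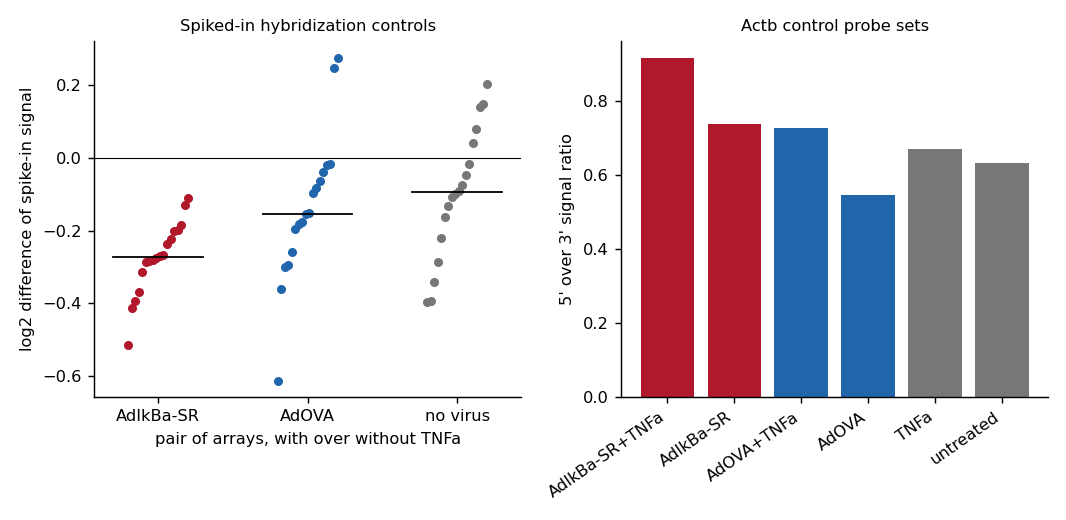
Left, log2 difference of signal with over without TNFa for the 18 spiked-in hybridization controls (points, ordered by value) in each pair of arrays, with the median as a bar. All 18 lie below 0 in the AdIkBa-SR pair, whose AdIkBa-SR array has another wash on record. Right, ratio of the 5' to the 3' Actb control signal on each array, from 0.545 to 0.916.

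The DC label was checked against 14 DC markers. On both arrays of the pair Itgax, the gene of the integrin CD11c, read 847 and 664 (AdIkBa-SR+TNFa and AdIkBa-SR), Cd74, the invariant chain of MHC class II, 3139 and 1832, and Cst3, a protease inhibitor abundant in DC, 6862 and 5850. The receptor gene Flt3, the surface peptidase gene Dpp4 and the lectin gene Cd209a were under the floor on both. The 13 granulocyte markers were above the floor on both arrays and strong for some, with S100a8 at 9756 and 9113, and macrophage markers were bright as well, with Lyz2 at 12511 and 11652. Summed signals were 16939 and 13798 for the DC markers, 44144 and 40704 for the granulocyte markers and 40005 and 39358 for the macrophage markers. The median log2 difference was 0.42 over DC markers, 0.01 over granulocyte markers and -0.06 over macrophage markers, against 0 over all 12393 genes, and the part of cell makeup in the other differences was not tested. In such bulk RNA, fewer cells of a type and less RNA per cell cannot be told apart.

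Nfkbia, the gene of IkBa itself, has 4 probe sets. The labels do not say whether the transcript of the virus-borne super-repressor is matched by any of these. The brightest read 8571 on the AdIkBa-SR+TNFa array and 10118 on the AdIkBa-SR array (log2 -0.24). The others read 391 and 322 (0.28), 2997 and 1849 (0.70) and 2723 and 1359 (1.00). The probe sets thus differed in sign, and none was highest on an AdIkBa-SR array among the 6, since AdOVA cells gave 16336, 784, 5338 and 3147.

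Across the array, 305 probe sets (1.35%) were at least 2-fold higher on the AdIkBa-SR+TNFa array than on the AdIkBa-SR array, and 125 (0.552%) were at least 2-fold lower. For 69 of the 305 and 35 of the 125, 1 array was under the floor and the fold is a bound. Read as genes, each from its brightest probe set, 149 of 12393 genes (1.2%) were higher and 75 (0.605%) lower. Differences beyond 4-fold were found for 2 probe sets with higher and 3 with lower signal. Among the 12226 probe sets above the floor on both arrays, log2 differences from the 25th to the 75th percentile ran from -0.27 to 0.27 and the median was -0.01, so the bulk of the array stood level. The same counts were 717 higher (3.17%) and 503 lower (2.22%) for AdOVA+TNFa over AdOVA, or 2.9% and 2.38% of genes. They were 112 higher (0.495%) and 157 lower (0.694%) for TNFa over untreated, or 0.371% and 0.758% of genes.

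limma, fitted to all 6 arrays, called 0 of 14902 probe sets for TNFa in AdIkBa-SR cells (percent called 0; lowest adjusted p = 0.266), and 754 (5.06%) had an unadjusted p under 0.05. It also called 0 for the difference between this TNFa response and the one shared by AdOVA cells and cells without virus (lowest adjusted p = 0.452; 731 at an unadjusted p under 0.05). The fit has 1 residual degree of freedom. Its spread for a probe set is that between the TNFa responses in AdOVA cells and in cells without virus. This spread was moderated across probe sets, with 16.4 prior degrees of freedom, and assumed to hold for the AdIkBa-SR arrays. The median SE was 0.396 for the response and 0.485 for the difference of responses. Higher and lower values in the AdIkBa-SR pair are therefore descriptions of 2 arrays.

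**Figure D2:**
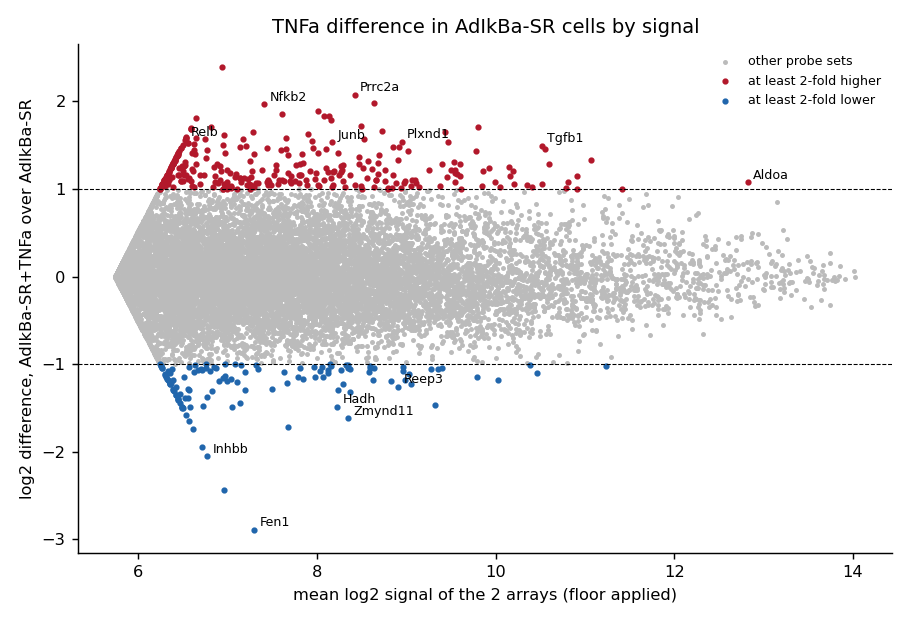
Each point is a probe set above the floor on at least 1 of the 2 arrays, with the mean log2 signal of AdIkBa-SR+TNFa and AdIkBa-SR on the x axis and the log2 difference, AdIkBa-SR+TNFa over AdIkBa-SR, on the y axis. Red points (305) are at least 2-fold higher and blue points (125) at least 2-fold lower, with dashed lines at 2-fold, and the slanted edges on the left are made by the floor.

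Of 9 NF-kB subunit and IkB genes read, 3 were at least 2-fold higher on the AdIkBa-SR+TNFa array (Nfkb2, Relb and Bcl3) and none lower, where 1.2% of all genes were higher. The median log2 difference over the 9 was 0.86, against 0.77 in the AdOVA pair and 0.17 without virus, and against 0 over all genes in each pair. Nfkb2 encodes p100, the precursor of the p52 subunit, and Relb its partner in the alternative branch of the pathway. Bcl3 is an atypical IkB protein that works with p50 and p52 dimers in the nucleus.

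Nfkb2 read 336 in AdIkBa-SR+TNFa cells and 86.0 in AdIkBa-SR cells (log2 1.97), 470 and 127 in AdOVA+TNFa and AdOVA cells (1.89), and 313 and 201 in TNFa and untreated cells (0.64). In all pairs the array with TNFa was the higher, and the AdIkBa-SR array was the lowest of the 6. Its second probe set read 104 and 85.0 in the AdIkBa-SR pair (0.29), so the size of the difference rests on 1 probe set. limma gave the first probe set an SE of 0.46 and an adjusted p of 0.655 for TNFa in AdIkBa-SR cells. Relb read 158 in AdIkBa-SR+TNFa cells and 18.2, under the floor, in AdIkBa-SR cells, at least 2.95-fold higher. It read 266 and 109 in AdOVA+TNFa and AdOVA cells and 102 and 90.7 in TNFa and untreated cells, so the AdIkBa-SR array alone was under the floor. Bcl3 read 251 and 119 (1.08), 447 and 255 in the AdOVA pair (0.81), and 135 and 190 without virus (-0.49), where the TNFa array was the lower.

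The subunit and inhibitor genes that stayed within 2-fold were mixed. Nfkbie and Nfkbib, which encode the inhibitors IkBe and IkBb, read 268 and 139 (0.94) and 692 and 382 (0.86) in AdIkBa-SR+TNFa and AdIkBa-SR cells. Rela, the p65 subunit, read 743 and 571 (0.38), and Rel, the c-Rel subunit prominent in DC, 94.3 and 103 (-0.13).

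The promoters of Nfkb2, Bcl3 and Tnfaip3, the feedback gene of the inhibitor A20, are shown because these genes of the pathway were all at least 2-fold higher. Windows run from 250 bases before to 50 after the RefSeq gene start on GRCm38.p6, written 5' to 3' on the gene's strand, and capitals mark matches to the kB consensus motif on either strand. Relb had no entry in the table, Nfkb2 has 3 starts of which the first is printed, and Tnfaip3 has 2 of which the one with matches is printed. The Nfkb2 window, chr19:46304487-46304786 on the plus strand, held 3 matches, of which 2 overlap by all but 1 base and appear as 1 run of capitals. The Bcl3 window, chr7:19822706-19823005 on the minus strand, held 1 match just after the start, and the Tnfaip3 window, chr10:19015361-19015660 on the minus strand, held 2.
Nfkb2: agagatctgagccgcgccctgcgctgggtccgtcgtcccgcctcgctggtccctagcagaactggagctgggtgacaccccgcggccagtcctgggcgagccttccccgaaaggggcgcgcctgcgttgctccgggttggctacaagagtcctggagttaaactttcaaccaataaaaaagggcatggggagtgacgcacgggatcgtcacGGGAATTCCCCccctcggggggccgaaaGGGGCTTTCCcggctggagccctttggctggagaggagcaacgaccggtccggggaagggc
Bcl3: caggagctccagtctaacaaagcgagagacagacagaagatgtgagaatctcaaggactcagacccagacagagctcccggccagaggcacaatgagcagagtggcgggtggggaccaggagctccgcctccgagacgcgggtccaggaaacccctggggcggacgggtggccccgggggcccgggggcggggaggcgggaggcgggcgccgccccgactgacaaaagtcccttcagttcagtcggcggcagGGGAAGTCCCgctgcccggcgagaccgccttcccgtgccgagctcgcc
Tnfaip3: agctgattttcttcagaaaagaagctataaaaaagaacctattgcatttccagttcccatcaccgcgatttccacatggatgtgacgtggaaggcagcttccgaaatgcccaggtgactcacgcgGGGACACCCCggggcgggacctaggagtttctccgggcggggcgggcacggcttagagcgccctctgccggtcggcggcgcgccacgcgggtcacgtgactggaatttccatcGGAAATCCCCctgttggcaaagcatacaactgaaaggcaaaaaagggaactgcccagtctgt
At least 1 window held a match for 11 of the 20 genes of the NF-kB subunit and feedback lists with a promoter in the table, and for Nfkb2, Bcl3 and Tnfaip3 alike. The other genes with a match, Rel, Nfkbia and Tank among them, were not at least 2-fold higher by their brightest probe sets, and Tank was at least 2-fold lower. A dimmer Nfkbia probe set, at 2723 and 1359 (1.00), did reach 2-fold higher. Among the 149 genes at least 2-fold higher, 125 had a promoter in the table and 7.20% of these held a match, against 4.55% of 66 genes at least 2-fold lower and 6.54% of 6117 genes above the floor on both arrays. Over all 32851 promoters in the table the share was 4.51%. The higher genes thus stood close to the share of all genes above the floor.

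**Figure D3:**
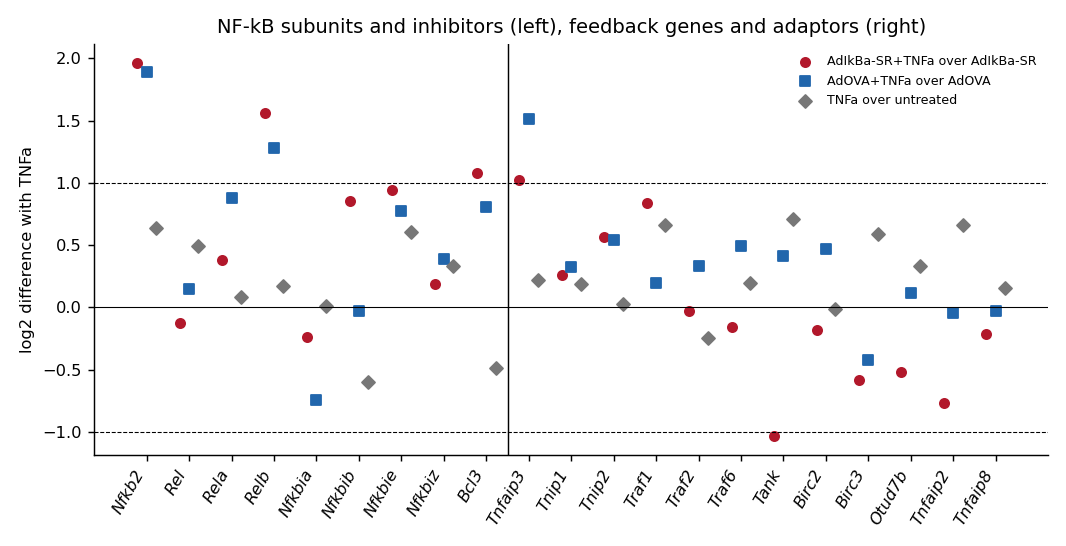
log2 difference with TNFa for each gene of the NF-kB subunit and IkB list (left of the line) and of the feedback and adaptor list (right), in AdIkBa-SR cells (circles), AdOVA cells (squares) and cells without virus (diamonds), with dashed lines at 2-fold. In AdIkBa-SR cells Nfkb2, Relb (a bound), Bcl3 and Tnfaip3 lie above 1 and Tank lies below -1.

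The feedback and adaptor genes did not share one direction. Of 12 read, 1 was at least 2-fold higher (Tnfaip3) and 1 lower (Tank), where 1.2% of all genes were higher and 0.605% lower, and the median was -0.17 in AdIkBa-SR cells, against 0.33 in the AdOVA pair and 0.21 without virus. Tnfaip3, the gene of the NF-kB inhibitor A20, read 224 and 110 in AdIkBa-SR+TNFa and AdIkBa-SR cells (1.02), 1462 and 512 in AdOVA+TNFa and AdOVA cells (1.51), and 189 and 162 in TNFa and untreated cells (0.22). Its level with TNFa in AdIkBa-SR cells stayed under that of AdOVA cells without TNFa. Tank, an adaptor that binds TRAF proteins, read 175 and 359 (-1.03), against 284 and 214 in the AdOVA pair (0.41) and 385 and 235 without virus (0.71), so it was lower with TNFa in the AdIkBa-SR pair and higher in the other pairs. The limma test of that difference in response gave log2 -1.59 (SE 0.48, adjusted p = 0.979). Traf1 read 303 and 170 (0.84), while Tnfaip2 read 1760 and 3002 (-0.77) and Birc3, the ubiquitin ligase cIAP2, 732 and 1097 (-0.58).

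Of 17 genes of TNF, its receptors and their signalling proteins, none was 2-fold apart by its brightest probe set, and the median was 0.08. Tnfrsf1b, the gene of TNF receptor 2, had a second probe set that read 1610 and 494 in AdIkBa-SR+TNFa and AdIkBa-SR cells (1.70), 2984 and 802 in the AdOVA pair (1.90), and 853 and 376 without virus (1.18). The brighter one read 4449 and 3071 (0.53) in AdIkBa-SR cells, so the 2 probe sets share a direction and differ in size. Tnf itself read 191 and 195 (-0.03) in AdIkBa-SR cells, 583 and 598 in AdOVA cells (-0.04), and 318 and 139 without virus (1.20).

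Most cytokine and chemokine genes were within 2-fold in AdIkBa-SR cells. Of 17 cytokines read, 2 were at least 2-fold higher and none lower, where 1.2% of all genes were higher and 0.605% lower. The median was 0, and 3 of the 17 were under the floor on both arrays, which sets their difference to 0. Tgfb1, a cytokine that restrains immune responses, read 2458 and 874 in AdIkBa-SR+TNFa and AdIkBa-SR cells (1.49, limma SE 0.37, adjusted p = 0.658), 1449 and 618 in the AdOVA pair (1.23), and 932 and 798 without virus (0.22). Csf3, the granulocyte growth factor G-CSF, read 111 in AdIkBa-SR+TNFa cells and 48.5, under the floor, in AdIkBa-SR cells, and 192 and 69.6 in the AdOVA pair. Il1a, of the interleukin-1 family, read 1871 and 1907 (-0.03), against 3007 and 1275 in TNFa and untreated cells (1.24). Its relative Il1b read 6202 and 3809 (0.70). Of 19 chemokines, 2 of them under the floor on both arrays, none was 2-fold apart, and the median was 0.15. The neutrophil attractant Cxcl1 read 1393 and 749 (0.89), and Cxcl10, which draws activated T cells, 739 and 774 (-0.07).

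DC maturation genes had a median close to that over all genes in the AdIkBa-SR pair. Of 21 read, Relb alone was at least 2-fold higher, by the bound given above, and none was lower. Of all genes 1.2% were higher and 0.605% lower. The median was 0.06 in AdIkBa-SR cells, 0.09 in AdOVA cells and 0.29 without virus, against 0 over all genes in each pair. The migration receptor gene Ccr7 read 200 and 101 (0.99) in AdIkBa-SR+TNFa and AdIkBa-SR cells, just inside 2-fold, against 516 and 402 in the AdOVA pair (0.36). The adhesion gene Icam1 read 673 and 352 (0.94), 1669 and 815 in the AdOVA pair (1.03), and 1010 and 617 without virus (0.71), the array with TNFa being the higher in all pairs. The costimulatory gene Cd86 read 699 and 1140 (-0.71), and Cd40 71.2 and 61.8 (0.21).

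Among 28 immediate-early genes and MAP kinase feedback genes, 3 were at least 2-fold higher and none lower (median 0.07), where 1.2% of all genes were higher and 0.605% lower. Junb, an AP-1 subunit, read 490 in AdIkBa-SR+TNFa cells and 170 in AdIkBa-SR cells (1.53, limma SE 0.36, adjusted p = 0.655), 1073 and 681 in the AdOVA pair (0.66), and 320 and 275 without virus (0.21). Its relative Jund read 1322 and 645 (1.04), 882 and 701 (0.33), and 584 and 549 (0.09) in the same pairs. The AdIkBa-SR array had the lowest Junb signal of the 6. Dusp2, a phosphatase of MAP kinases, read 131 in AdIkBa-SR+TNFa cells and 28.1, under the floor, in AdIkBa-SR cells, where all other arrays were above the floor. Fos read 889 and 1348 (-0.60), opposite to the Jun family members.

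In the prostaglandin and leukotriene list, Ptges alone of 10 genes was at least 2-fold higher by its brightest probe set, where 1.2% of all genes were higher. Ptges is the terminal synthase of prostaglandin E2, and in AdIkBa-SR+TNFa and AdIkBa-SR cells its probe sets were alike, with 1136 and 503 (1.17) and 421 and 178 (1.24). In AdOVA+TNFa and AdOVA cells they read 1973 and 1153 (0.78) and 827 and 345 (1.26), and in TNFa and untreated cells 552 and 479 (0.21) and 255 and 116 (1.14), so only the dimmer was 2-fold higher in those pairs. Ptgs2, the inducible cyclooxygenase upstream of it, read 733 and 395 (0.89), 3628 and 2379 in the AdOVA pair (0.61), and 716 and 408 without virus (0.81). Its other probe set read 800 and 380 (1.07), 4210 and 2148 (0.97), and 803 and 239 (1.75) in the same pairs, so that by this probe set Ptgs2 was also past 2-fold in AdIkBa-SR cells.

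Of 13 glycolysis genes, 3 were at least 2-fold higher and none lower, where 1.2% of all genes were higher, with a median of 0.16 in AdIkBa-SR cells, 0.39 in AdOVA cells and -0.06 without virus. Pfkl, the liver-type phosphofructokinase subunit, read 1215 and 497 (1.29) and, on its other probe set, 1026 and 532 (0.95) in AdIkBa-SR+TNFa and AdIkBa-SR cells. Aldoa, an aldolase, read 10498 and 4984 (1.07), and its other 3 probe sets gave log2 differences from 0.74 to 1.00. Slc16a3, a lactate exporter, read 1495 and 635 (1.24). For these genes the AdOVA pair also lay above 0, with Pfkl at 1542 and 564 (1.45), while TNFa and untreated cells were close, at 736 and 700 (0.07). Pgk1, of the same pathway, read 10256 and 12207 (-0.25), and Ldha 8182 and 7337 (0.16), so not every step was higher.

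The listed ribosomal protein and respiratory chain genes had medians near 0 in AdIkBa-SR cells and below 0 in the other pairs. Of 27 cytosolic ribosomal protein genes none was 2-fold apart in the AdIkBa-SR pair, with a median of -0.04 and a range from -0.55 to 0.55. In the AdOVA pair 9 were at least 2-fold lower (2.38% of all genes were), with a median of -0.87, and without virus 2 (0.758% of all genes), with a median of -0.52. Rpl39, a gene of the large subunit that is not among the 27, went past 2-fold in AdIkBa-SR cells, with 255 and 121 (1.08), against 145 and 332 (-1.20) in the AdOVA pair and 205 and 162 (0.34) without virus. Rps18, of the small subunit, read 3546 and 3342 (0.09) in AdIkBa-SR+TNFa and AdIkBa-SR cells, 1211 and 2566 (-1.08) in the AdOVA pair, and 2102 and 4393 (-1.06) without virus. The 23 respiratory chain genes had a median of -0.03 in AdIkBa-SR cells, with none 2-fold apart, against -0.57 in the AdOVA pair (8 lower, 1 higher) and -0.47 without virus (1 lower). Uqcrb, of complex III, read 5262 and 4683 (0.17), 1668 and 4698 (-1.49), and 3470 and 5584 (-0.69) in the same pairs. limma's test of the difference in TNFa response called none of these 27 and 23 genes (lowest adjusted p = 0.979), with 6 and 3 at an unadjusted p under 0.05. Of all probe sets tested 4.91% lay under 0.05 in that test.

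Interferon-stimulated genes were more often lower than higher, by less than 2-fold. Of 30 read, all above the floor on both arrays, 19 were lower and 11 higher on the AdIkBa-SR+TNFa array, with none 2-fold apart. The median was -0.28, against 0.16 in the AdOVA pair and 0.01 without virus. Over all genes above the floor on both arrays the median in the AdIkBa-SR pair was -0.01. Ifit2, an antiviral effector, read 886 and 1613 (-0.86), and the RNA sensor gene Ifih1 537 and 972 (-0.86). Gbp3, a guanylate-binding GTPase, read 161 and 277 (-0.78), whereas Irf7, a transcription factor of the interferon response, read 5767 and 3084 (0.90). limma called none for TNFa in AdIkBa-SR cells (lowest adjusted p = 0.856).

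Antigen presentation genes were also within 2-fold. Of 14 MHC class I processing genes 12 were higher and 2 lower, with a median of 0.28, near the 0.30 of the AdOVA pair and against -0.06 without virus. The median over all genes above the floor on both arrays was -0.01 in the AdIkBa-SR pair. Pdia3, a disulfide isomerase of the peptide-loading complex, read 2336 and 1199 (0.96) in AdIkBa-SR+TNFa and AdIkBa-SR cells and 1745 and 741 in the AdOVA pair (1.24). The peptide transporter gene Tap1 read 626 and 428 (0.55). The 11 MHC class II genes had a median of 0.07, and the 20 uptake receptors -0.14, with the lectin gene Clec4a2 at 912 and 1578 (-0.79) and the scavenger receptor gene Stab1 at 350 and 213 (0.72).

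Of the remaining lists, the 15 survival genes (median -0.02) and the 20 stress genes (median -0.19) each held 1 gene at least 2-fold lower, where 0.605% of all genes were lower. Among the survival genes it was Xiap, an inhibitor of caspases, at 431 and 898 (-1.06), whose only other probe set above the floor read 116 and 129. Among the stress genes it was Hspe1, the mitochondrial co-chaperonin, at 301 and 687 in AdIkBa-SR+TNFa and AdIkBa-SR cells (-1.19). It was lower in the other pairs too, at 111 and 368 (-1.73) with AdOVA and 253 and 531 (-1.07) without virus. Its second probe set read 182 and 231 (-0.34), 105 and 182 (-0.80) and 225 and 315 (-0.48) in the same pairs, within 2-fold in each. No gene was 2-fold apart among 20 of SOCS and JAK-STAT signalling (median 0.17), 13 of cholesterol synthesis (0), 22 of proliferation (-0.04), 18 chromatin and transcription regulators (0.00) and 9 reference genes (-0.17).

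**Figure D4:**
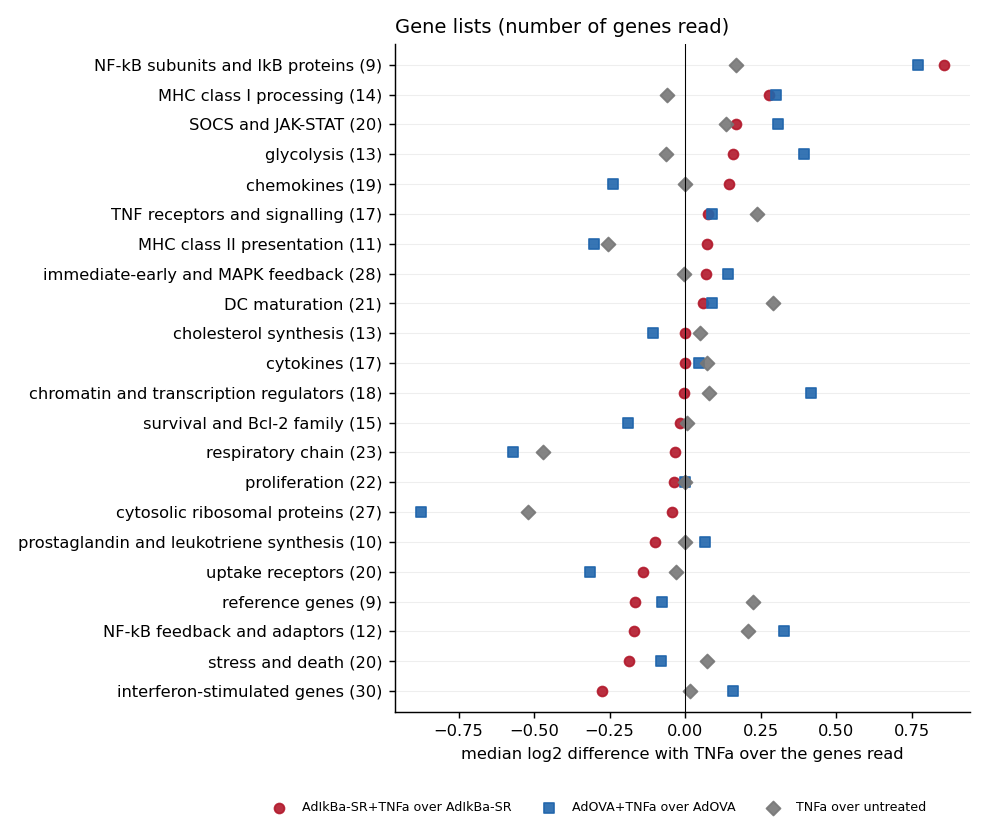
Median log2 difference with TNFa over the genes read in each of 22 lists (number of genes in brackets), in AdIkBa-SR cells (circles), AdOVA cells (squares) and cells without virus (diamonds), sorted by the AdIkBa-SR pair. The NF-kB subunit and IkB list lies highest in the AdIkBa-SR pair at 0.86 and the interferon-stimulated genes lowest at -0.28, while ribosomal protein and respiratory chain genes lie near 0 there and at -0.87 and -0.57 in the AdOVA pair.

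Over all genes with both arrays above the floor, Prrc2a, which encodes an RNA-binding protein, had the largest higher value, with 704 in AdIkBa-SR+TNFa cells and 167 in AdIkBa-SR cells (2.08, limma SE 0.39, adjusted p = 0.266). It read 598 and 311 in the AdOVA pair (0.94) and 301 and 270 without virus (0.16), so the AdIkBa-SR array was the lowest of the 6 and the AdIkBa-SR+TNFa array the highest. Averaged over both its probe sets the log2 difference was 1.04, where a probe set under the floor on both arrays counts as 0. Nos2, the inducible nitric oxide synthase of activated phagocytes, read 634 and 213 (1.58), 3444 and 640 in the AdOVA pair (2.43), and 233 and 151 without virus (0.63). The array with TNFa was the higher in all pairs, and AdOVA+TNFa cells stood far above AdIkBa-SR+TNFa cells. Fkbp8, which anchors Bcl-2 family proteins at mitochondria, read 651 and 198 (1.72), 300 and 57.0 in the AdOVA pair (2.40), and 175 and 218 without virus (-0.32).

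The other genes among the 15 with the largest higher values had log2 differences from 1.54 to 1.85 besides Nfkb2, Junb and those above. They include the integrin gene Itga5, Gga1, a clathrin adaptor of the Golgi (370 and 103), and Ube2s, a ubiquitin-conjugating enzyme (420 and 136), whose mean over all probe sets was 0.82. Clpp, a mitochondrial protease, read 276 and 88.0 (1.65) but 155 and 152 in the AdOVA pair (0.02). Its mean over both probe sets in the AdIkBa-SR pair was 1.02, so its other probe set was within 2-fold. Ccnt1, the cyclin of the elongation factor P-TEFb, read 349 and 116 (1.59) and 566 and 158 in the AdOVA pair (1.84). Plxnd1, a semaphorin receptor, read 842 and 290 (1.54), and Ldb1, Rabl6 and Zmiz2 were also among them. With the AdIkBa-SR array under the floor, Nfic, Miip, Siglece, Ring1 and Emilin1 had the largest bounds, at signals from 160.0 to 187 in AdIkBa-SR+TNFa cells. As means over all probe sets Rabl6 (0.67), Nfic (0.45) and Emilin1 (0.79) were within 2-fold as well. Such means count probe sets under the floor on both arrays as 0, so a small mean need not come from probe sets that disagree.

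Among genes with 2 or more measured probe sets (2922 genes), 9 had all of them at least 2-fold higher, where 150 had at least 1. Cd99, a surface protein of leukocyte passage through vessel walls, had 3 such probe sets, with 2485 and 902 (1.46), 930 and 400 (1.22) and 1201 and 415 (1.53) in AdIkBa-SR+TNFa and AdIkBa-SR cells. Without virus all 3 were lower with TNFa, from -0.65 to -0.48, and in the AdOVA pair higher, from 0.52 to 0.99. Itga5, the fibronectin receptor subunit, had 756 and 238 (1.67) and 421 and 158 (1.41), and in the AdOVA pair 1190 and 248 (2.26) and 680 and 186 (1.87). The others were Ptges, the lipid kinase gene Pi4k2a, the thiol oxidase gene Qsox1, the actin-nucleating Arpc4, the syntaxin-binding Stxbp2, the protease gene Capn1 and Hdc, the histamine-forming enzyme. Hdc read 236 and 84.3 (1.48) and 183 and 89.3 (1.03), and 418 and 605 (-0.53) and 474 and 477 (-0.01) in the AdOVA pair. Mettl9 alone had all probe sets at least 2-fold lower, where 67 genes had at least 1.

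The largest lower value was that of Fen1, a DNA flap endonuclease, with 57.7 in AdIkBa-SR+TNFa cells and 427 in AdIkBa-SR cells (-2.89, limma SE 0.54, adjusted p = 0.266). The other arrays ran from 51.9 in AdOVA+TNFa cells to 561 in TNFa cells, so its levels did not follow TNFa. The mean over both probe sets in the AdIkBa-SR pair was -1.46. The other Fen1 probe set thus differed little, and the lower value rests on 1 probe set. Zmynd11, a chromatin reader, read 185 and 569 (-1.62), 171 and 283 (-0.73) and 266 and 596 (-1.17), lower with TNFa in all pairs. Hadh, an enzyme of fatty acid oxidation, read 179 and 500 (-1.48), 70.2 and 245 in the AdOVA pair (-1.80), and 663 and 767 without virus (-0.21). The DNA damage kinase gene Atm read 55.4 and 140 (-1.34) and the splicing kinase gene Srpk2 85.4 and 232 (-1.44), while the AdOVA pair lay at 0.19 and 0.42. Rusc1, Qrsl1, Hibch, Cab39l, Rmi1, Sst, Reep3, Tctn2, Tbc1d24 and Hspe1 complete the 15. Fen1, Rusc1, Hadh, Qrsl1, Hibch, Cab39l, Rmi1 and Hspe1 were read from probe sets whose name marks matches to several transcripts (suffix s or x). The rest of the 15 were not. On the AdIkBa-SR+TNFa array Hibch (56.8), Sst (55.2) and Tctn2 (54.0) lay just above the floor, as did Fen1 and Atm. Inhbb, an activin subunit, read 16.2, under the floor, and 222, at least 4.15-fold lower, followed by Poglut2, Rnf113a1, Gal3st1 and Nckap1. As means over all probe sets 11 of these 20 were within 2-fold, Zmynd11 at -0.65, Hadh at -0.63, Srpk2 at -0.53, Rusc1 at -0.27, Cab39l at -0.50 and Hspe1 at -0.77 among them. Probe sets under the floor on both arrays count as 0 in these means too.

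At the 2-fold edge, Colgalt1 (174 and 87.1) and Mark4 (181 and 90.2) lay just inside on the higher side and Iqgap3 and Otub1 just outside. Cnr2 and Tm2d3 lay just inside on the lower side, and Eif2s2 and Dck just outside.

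The 305 higher probe sets had a median log2 difference of 0.74 (interquartile range 0.33 to 1.24) in the AdOVA pair, which shares no array with the choice, and of 0.00 (-0.29 to 0.27) without virus. In the AdOVA pair 108 of them were at least 2-fold higher as well, which is 35.4% of the 305 and 15.1% of the 717 there, and 3 were at least 2-fold lower, where 3.17% of all probe sets were higher and 2.22% lower. Without virus 8 were higher, which is 2.62% of the 305 and 7.14% of the 112, and 11 were lower, where 0.495% of all probe sets were higher and 0.694% lower. The 125 lower probe sets had medians of -0.19 in the AdOVA pair and 0.08 without virus, and 9 (7.2% of the 125, 1.79% of the 503) and 7 (5.6% of the 125, 4.46% of the 157) were lower there too, where 2.22% and 0.694% of all probe sets were lower. Across the 11002 probe sets above the floor on all 6 arrays, log2 differences in the AdIkBa-SR pair had Pearson's r = 0.355 with the AdOVA pair and -0.13 with the pair without virus, a description across probe sets whose values share an array scaling.

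**Figure D5:**
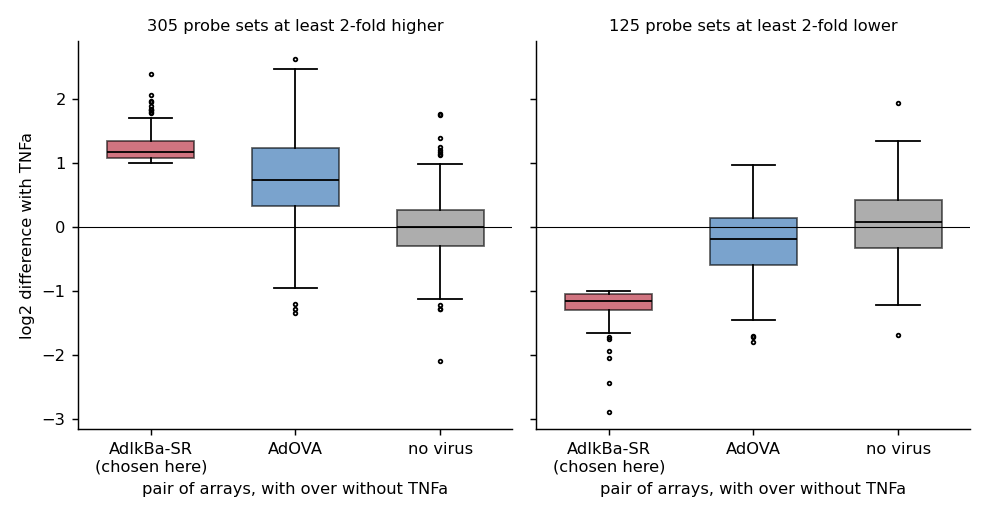
log2 difference with TNFa in each pair of arrays for the 305 probe sets at least 2-fold higher (left) and the 125 at least 2-fold lower (right) in the AdIkBa-SR pair, where they were chosen. Boxes span the quartiles with the median as a line, whiskers reach 1.5 times that span and points lie beyond. The 305 have medians of 0.74 in the AdOVA pair and 0.00 without virus, and the 125 medians of -0.19 and 0.08.

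The 4 probe sets whose signal was at least 2-fold higher on the TNFa array of all pairs, named after their values were seen, belong to Tnfrsf1b, Ptges, Mknk2 and Mafg. Mknk2, a kinase of the translation factor eIF4E, read 508 and 143 (1.83) in AdIkBa-SR+TNFa and AdIkBa-SR cells, 483 and 102 in the AdOVA pair (2.25), and 171 and 74.3 without virus (1.21). Mafg, a small Maf transcription factor, read 158 and 59.5 (1.41), and 214 and 182 in AdOVA+TNFa and TNFa cells with both matching arrays under the floor. Means over both probe sets in the AdIkBa-SR pair were 1.06 for Mknk2 and 1.01 for Mafg. The other probe set of each was thus within 2-fold there. Hspe1 alone was at least 2-fold lower in all pairs, by its brighter probe set only, and the Ptges entry is likewise its dimmer probe set. The 3 with opposite directions in AdIkBa-SR and AdOVA cells belong to the ribosomal protein gene Rpl39, to Ptgds and to Rnasek, also named after their values were seen. Rnasek, a ribonuclease, read 849 and 315 (1.43), against 90.9 and 230 in the AdOVA pair (-1.34) and 220 and 456 without virus (-1.05).

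The ranks of the arrays among the 6 are given as a description. The probe sets were chosen by the difference between the AdIkBa-SR+TNFa and AdIkBa-SR arrays. This choice alone pushes the ranks and median signals of these arrays apart. No share among other probe sets was taken for comparison, so the ranks cannot tell which array stood apart. Of the 236 higher probe sets above the floor on both arrays, the AdIkBa-SR+TNFa array was the highest of the 6 for 131 and the AdIkBa-SR array the lowest for 91. Their median signals were 340 and 143 on the AdIkBa-SR+TNFa and AdIkBa-SR arrays, 314 and 173 on the AdOVA+TNFa and AdOVA arrays, and 186 and 180 on the TNFa and untreated arrays. Of the 90 lower ones, the AdIkBa-SR+TNFa array was the lowest for 55 and the AdIkBa-SR array the highest for 43.

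Gene length and promoter GC content are given for the genes at least 2-fold apart as a description, with no test. The median gene length was 15863 bp (quartiles 7608 and 27452) over the 149 higher genes and 27555 bp (11130 and 45831) over the 75 lower ones, against 21888 bp (9577 and 47320) over 7447 genes above the floor on both arrays. In the AdOVA pair the order was the other way, with 23137 bp for higher and 9056 bp for lower genes. Median promoter GC content was 62.0% (quartiles 55.0% and 67.0%) for the higher and 57.8% (53.7% and 65.0%) for the lower genes, against 60.7% (54.7% and 66.7%) for genes above the floor on both arrays. These quartile ranges overlapped for both features. Probe sets whose name marks matches to several transcripts (suffix s or x) were 15.4% of the 305 and 26.4% of the 125, against 13.2% of all probe sets. Higher probe sets were found at all signal levels: in 5 equal bins of mean signal among the 12226 above the floor on both arrays there were 23, 56, 52, 63 and 42, from the dimmest to the brightest, and the SD of log2 differences stayed between 0.39 and 0.46.

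Markers of other cells were mostly within 2-fold in the AdIkBa-SR pair, where 1.2% of all genes were higher and 0.605% lower. Hdc was 1 of 9 mast cell and basophil markers read, where the basophil protease gene Mcpt8 read 670 and 741 and Cpa3 558 and 561, and Mcpt4 was under the floor. Of 6 megakaryocyte markers Gp9 read 132 in AdIkBa-SR+TNFa cells and 18.9, under the floor, in AdIkBa-SR cells, while Pf4 read 9168 and 9550. Of 9 T cell markers read, 6 were under the floor on both arrays, Cd3d, Cd3e and Cd3g among them, and 2 were above it on both, Cd28 at 146 and 206 and Zap70 at 318 and 271. Their summed signals were 590 and 611.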

How the data were processed

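The authors deposited 1 signal per probe set of the MOE430A array, a microarray intensity on the linear scale. Per the submitters' processing notes the signals come from MAS5, for which the sources used here give no version. The 2% trimmed mean was 200.1 on each array, so no rescaling was done. Wash settings were read per the file headers of each array. Of 22690 probe sets 64 are controls. The platform annotation pairs 20380 of the rest with 1 gene symbol, 691 with several and 1555 with none.

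Every signal below 53.5, which is the 40th percentile over non-control probe sets, was raised to this floor before log2 differences were taken. This compresses dim genes, and a fold is only a bound where either array lies below the floor. Each gene takes the value of its brightest probe set. limma 3.58.1 in R 4.3.3 (lmFit, eBayes with trend, Benjamini-Hochberg adjustment) was fitted to 14902 probe sets above the floor on at least 2 arrays. It had 5 coefficients, for 3 virus states, for the TNFa response common to AdOVA cells and cells without virus, and for the response in AdIkBa-SR cells. The fit was tested on simulated data, with independent noise of the fit's own spread. Such data cannot show whether that spread holds for the arrays used here. The p-values rest on the spread between the TNFa responses in AdOVA cells and in cells without virus. limma moderated it across probe sets, with 16.4 prior against 1 residual degree of freedom. The AdIkBa-SR arrays add nothing to this spread and are assumed to vary like the others. The number of arrays limits the precision.

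Named are the 15 genes per direction with the largest log2 difference and both arrays above the floor, and up to 5 per direction with the largest bound. Also named are genes with all measured probe sets at least 2-fold apart in one direction, list members at least 2-fold apart with up to 4 others in list order, the genes next to the 2-fold threshold, and all probe sets of Nfkbia and Tnfrsf1b. Further list members were named after their values were seen, and 1 gene that the rule takes is not reported here. The comparison and the 32 lists were chosen with earlier results of these data known. Promoters and gene lengths come from RefSeq on GRCm38.p6. Alternatives tried were the floor, the scaling, loess, the filter, the fit's settings and the mean over all probe sets of a gene.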

Additional observations from a re-analysis of the deposited data

How the results depend on the processing

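With a floor of 20 in place of 53.5, the counts of probe sets 2-fold or more apart in the AdIkBa-SR pair were 783 higher and 543 lower, and with a floor of 100, 175 and 59, since the floor sets how many dim probe sets can differ. Under equal medians, quantile normalization, loess within the pair or the demand that both arrays be above the floor, the counts ran from 236 to 311 higher and from 90 to 149 lower. limma called 0 under the other floors, scalings and fit settings; without a filter on dim probe sets it called 84 higher and 55 lower for TNFa in AdIkBa-SR cells and 66 higher and 49 lower for the difference in response. Of these 139 calls, 130 were above the floor on 1 array only and 9 had been in the filtered set. Of 55 named genes at least 2-fold apart, none changed sign, 54 or 55 stayed 2-fold apart under the scalings and the floor of 20, 35 with the floor of 100, and 38 as the mean over all probe sets. Of 32 list medians, up to 2 changed sign under an alternative, none larger than 0.10. The scalings moved the median of all probe sets by at most 0.03. No paired analysis was possible because each group has 1 array and so no replicate numbers to pair; the limma fit already compares TNFa with no TNFa within each virus state. With 1 array a group no array could be left out, so the AdIkBa-SR array with the other recorded wash cannot be removed from its own comparison.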
